A study of Mus musculus with 6 samples.

Results

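The genes described here were 9 genes of retinoid metabolism and signalling among the 34745 genes measured in cultured lung mesenchymal stromal cells (LMSCs). They were the retinaldehyde dehydrogenases Aldh1a1, Aldh1a2 and Aldh1a3, the carrier and binding proteins Rbp4, Crabp1 and Crabp2, and the retinoic acid receptors Rara, Rarb and Rarg. They were taken by name from the table of expression values. The set was chosen by its measured levels in these same libraries across the tumor stages, so the values of the 9 genes are given as a description and carry no p-value. Aldh1a1 is also among the genes the study drew in a heat map of those enriched at the later stages, made in part from these libraries, so its direction here is not independent evidence.

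RNA was sequenced from LMSCs of female MMTV-PyMT mice on an FVB background, in which the mouse mammary tumor virus promoter drives the polyoma middle T oncogene in mammary epithelium and the resulting tumors spread to the lung. All groups carried the transgene, and no wild-type library was analysed here. A-LMSCs (E-LMSCs in the sample labels) came from the adenoma stage at 6 to 7 weeks of age, PM-LMSCs (L-LMSCs in the labels) from the pre-metastatic stage (9 to 10 weeks) and M-LMSCs from the metastatic stage (13 to 14 weeks). Adherent cells of digested lung were depleted of CD45+ cells with magnetic beads and sequenced at passage 3, with 2 libraries per stage and 6 in all, so age, tumor stage and the selection that culture imposes cannot be told apart. The study describes the libraries of a stage as coming from separate mice, which the labels do not state. Its methods also give somewhat older ages than the labels for the first 2 stages. In such bulk samples, a smaller share of cells of one type and less RNA per cell cannot be told apart.

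Retinol reaches cells bound to the plasma carrier Rbp4. Inside the cell it is oxidized to retinaldehyde, and the Aldh1a enzymes carry out the irreversible step to retinoic acid. Crabp1 and Crabp2 bind retinoic acid in the cytoplasm, and Crabp2 is known to deliver it to the nucleus, where the receptors Rara, Rarb and Rarg act with retinoid X receptors on genes that carry response elements. In the lung, retinoic acid is known for its part in alveolar septation and in the fibroblasts that store retinoid.

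Of the 7 genes that reached a mean of 1 FPKM, Aldh1a1 differed most between stages on the log2(FPKM + 1) scale. Against A-LMSCs, its mean was 2.56-fold higher in PM-LMSCs and 2.62-fold higher in M-LMSCs, while Aldh1a2, the most abundant of the 9 genes in every library, stood at 0.985-fold and 0.836-fold. Rarg, the most abundant receptor, was lower in both later stages in every library, and Rara lay between 4.60 and 5.07 FPKM throughout. Aldh1a3 and Rbp4 had means below 1 FPKM, and Rbp4 was near the limit of detection. The libraries held between 14800000 and 20800000 fragments, as recovered from the values,, and levels are given as FPKM (fragments scaled to gene length and to the total of the library).

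The study's question for these libraries was how the stromal cells of the lung change while the mammary tumor progresses. Sequences are shown for 2 features of these genes. The first is the likeness of Aldh1a1 to Aldh1a7, a related dehydrogenase gene that lies 49487 bases downstream on the same chromosome. Aldh1a1 spans chr19:20492715-20643465 on the plus strand and Aldh1a7 spans chr19:20692953-20727562 on the minus strand (GRCm38). The first 60 coding bases of both genes are printed from the start codon because a read must cover such differences to be told apart, and the 3 bases that differ are in capitals.
Aldh1a1: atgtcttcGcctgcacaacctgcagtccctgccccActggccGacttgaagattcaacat
Aldh1a7: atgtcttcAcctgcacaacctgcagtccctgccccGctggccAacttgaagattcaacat
Over the whole coding sequence 126 of 1503 bases differed, which is 91.6% identity, and the longest identical run was 100 bases. Aldh1a7 itself was low, at 1.46 and 0.608 FPKM at the adenoma stage, 1.44 and 1.13 FPKM at the pre-metastatic stage and 1.23 and 0.700 FPKM at the metastatic stage. Its fragments amounted to between 0.832% and 7.09% of those of Aldh1a1 in the same library. The other dehydrogenases were further apart in sequence, since Aldh1a1 and Aldh1a2 shared 69.8% of aligned coding bases, Aldh1a1 and Aldh1a3 69.1%, and Aldh1a2 and Aldh1a3 69.9%.

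The second feature is the retinoic acid response element, a direct repeat of half-sites through which the receptors bind DNA. RefSeq promoter windows (GRCm38.p6), running from 250 bases before to 50 after a start site, were searched on both strands for 2 half-sites in the same direction, each of them AGGTCA or GGGTCA, or else the forms AGTTCA and GGTTCA that are also known, with a spacer of 1, 2 or 5 bases. Windows were found for 7 of the 9 genes, and Aldh1a3 and Crabp2 had none. Rarb was the single member with such a repeat, and Cyp26a1, the enzyme that breaks down retinoic acid, held one among the other pathway genes. Both stretches are shown because their repeats have the same spacer, of 5 bases, and lie close to the start site. The half-sites are in capitals.
Rarb: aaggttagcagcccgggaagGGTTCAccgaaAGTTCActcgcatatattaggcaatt
Cyp26a1: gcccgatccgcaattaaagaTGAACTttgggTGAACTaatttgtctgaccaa
The Rarb stretch is chr14:16575493-16575549 on the minus strand, with the repeat from 53 to 37 bases before the start site. The Cyp26a1 stretch is chr19:37697756-37697807 on the plus strand, and its repeat reads on the opposite strand. Both repeats have a spacer of 5 bases, a form found in 0.0974% of the 32851 windows, while any of the 3 spacers was found in 0.588%. Of the 83 retinoid and aldehyde dehydrogenase genes listed here, 60 had a window and 3 held a repeat, the third being Bco1, a carotenoid-cleaving oxygenase, with a spacer of 1. A match is a description of these letters and not evidence of binding.

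Rarb, whose promoter holds the repeat, measured 9.15 and 8.96 FPKM at the adenoma stage, 12.8 and 8.84 FPKM at the pre-metastatic stage and 10.7 and 6.02 FPKM at the metastatic stage. The 3 stages overlapped, and in both later stages replicate 1 was above replicate 2. Cyp26a1 was at or near 0 in all 6 libraries, with a highest value of 0.0710 FPKM.

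**Figure D1:**
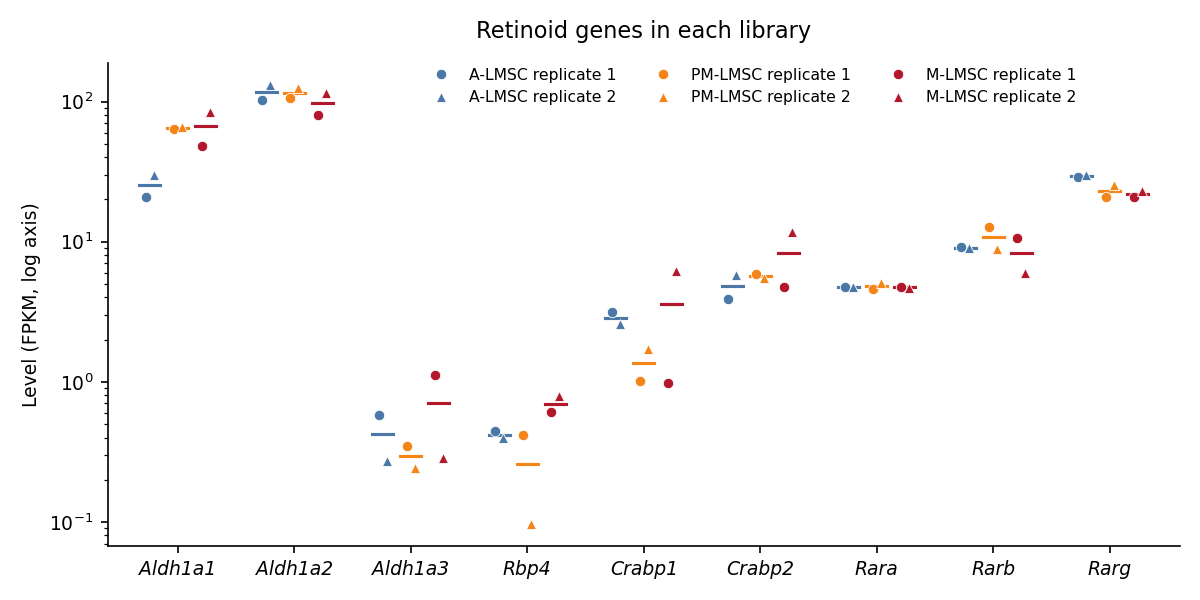
Level of each of the 9 genes in each library, in FPKM on a log axis. Circles are replicate 1, triangles are replicate 2 and the short lines are stage means of 2 libraries. Aldh1a2 lies highest, the 4 later-stage values of Aldh1a1 all lie above the A-LMSC values, and Aldh1a3 and Rbp4 lie near or below 1 FPKM.

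Among the dehydrogenases, Aldh1a1, a cytosolic enzyme that makes retinoic acid and also clears other aldehydes, measured 20.8 and 30.0 FPKM at the adenoma stage, 63.8 and 66.2 FPKM at the pre-metastatic stage and 48.3 and 84.6 FPKM at the metastatic stage. Both later stages lay above A-LMSCs without overlap, while PM-LMSCs lay inside the range of M-LMSCs. The stage means were 25.4 ± 6.53, 65.0 ± 1.69 and 66.5 ± 25.7 FPKM (SD, n = 2 each). The difference of means on the log2(FPKM + 1) scale was 1.34 (SE 0.28) for PM-LMSCs against A-LMSCs, 1.32 (SE 0.28) for M-LMSCs against A-LMSCs and -0.02 (SE 0.28) for M-LMSCs against PM-LMSCs. The first 2 comparisons share the A-LMSC libraries. Between libraries of the same number, Aldh1a1 in PM-LMSCs was 3.07-fold of A-LMSCs for replicate 1 and 2.21-fold for replicate 2, and in M-LMSCs it was 2.33-fold and 2.82-fold. Between 889 and 2883 fragments stood behind each value, and the 95% Poisson interval ran from 19.4 to 22.2 FPKM for the lowest library and from 81.6 to 87.8 FPKM for the highest.

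The summed level of mesothelial markers moved with Aldh1a1, though not every single marker did. Mesothelium is the cell layer that covers the lung, and the summed level of 12 of its markers was 134 and 197 FPKM at the adenoma stage, 326 and 459 FPKM at the pre-metastatic stage and 224 and 551 FPKM at the metastatic stage. The 6 libraries stood in the same order by this sum as by Aldh1a1, and the ratio of Aldh1a1 to the sum lay between 0.144 and 0.216. Upk1b, a urothelial and mesothelial membrane protein, made up the greatest part of the sum and was itself drawn in that heat map, and Msln (mesothelin) measured 8.87 and 12.7, 33.8 and 47.7, and 12.6 and 48.2 FPKM in the 3 stages in turn. In contrast, Krt19 went the other way, at 13.8 and 17.3, 8.09 and 9.28, and 4.92 and 4.49 FPKM, and Muc16 was at or below 0.349 FPKM in all 6 libraries. The part of mesothelial cells in the level of Aldh1a1 was not tested.

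Markers of other cell types did not follow the same order. The summed level of 10 haematopoietic markers was 135 and 127 FPKM at the adenoma stage and 171 and 78.3 FPKM at the pre-metastatic stage. At the metastatic stage it was 407 and 296 FPKM. Lyz2 made up most of this sum, at 115 and 106, 147 and 60.6, and 362 and 250 FPKM in the 3 stages in turn. For each of the 6 haematopoietic markers fitted, both metastatic-stage values exceeded both adenoma-stage values. The same held for 2786 of the 10279 fitted genes. Ptprc (CD45), the marker depleted by the beads, was at or below 0.0987 FPKM in every library. The 11 mesenchymal stromal markers were all detected in each library and summed to between 2086 and 3231 FPKM. Sums of 10 lung epithelial markers (0.291 to 2.13 FPKM), 8 mammary epithelial markers (0.672 to 1.93 FPKM) and 6 endothelial markers (1.68 to 2.95 FPKM) were low. Their mean sums in M-LMSCs were 2.09-fold, 2.01-fold and 1.63-fold of A-LMSCs, in this order. Kdr, the 1 endothelial marker fitted, measured 1.11 and 1.17, 1.31 and 1.44, and 2.23 and 2.31 FPKM in the 3 stages in turn.

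**Figure D2:**
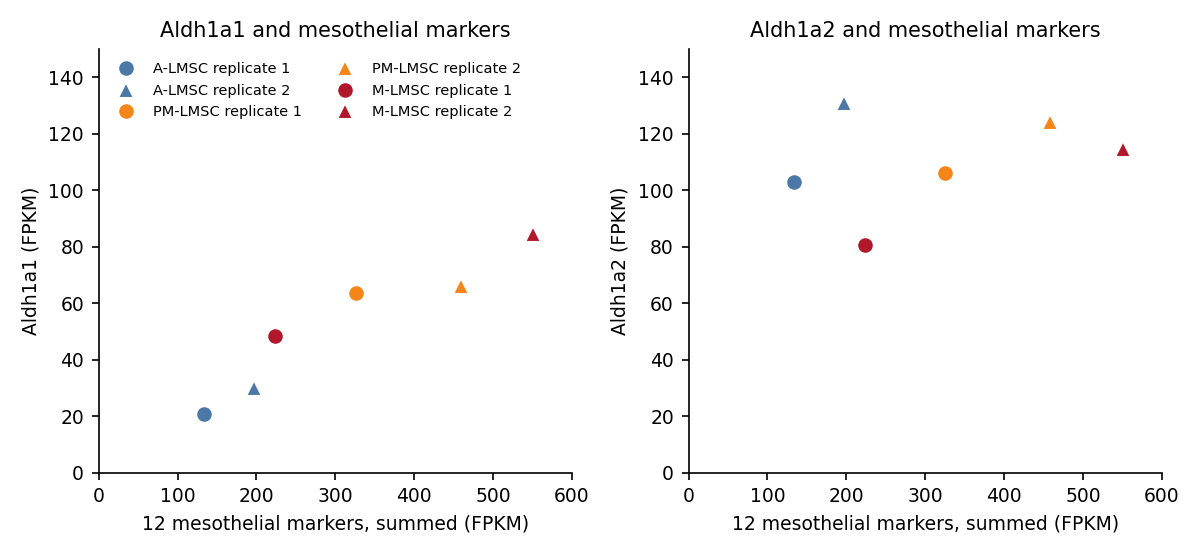
Level of Aldh1a1 (left) and Aldh1a2 (right), in FPKM, against the summed FPKM of 12 mesothelial markers, with 1 point per library (circles replicate 1, triangles replicate 2). Aldh1a1 climbs with the marker sum through all 6 libraries, from 20.8 FPKM at a sum of 134 to 84.6 FPKM at a sum of 551, whereas Aldh1a2 shows no such order.

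Aldh1a2, the main retinoic acid-forming enzyme of the embryonic mesoderm and also known in mesothelium, measured 103 and 131 FPKM at the adenoma stage, 106 and 124 FPKM at the pre-metastatic stage and 80.7 and 115 FPKM at the metastatic stage. All 3 stages overlapped, and replicate 2 exceeded replicate 1 in each of them. Its differences on the log2(FPKM + 1) scale were -0.02 for PM-LMSCs against A-LMSCs, -0.27 for M-LMSCs against A-LMSCs and -0.25 for M-LMSCs against PM-LMSCs (SE 0.20 each). Its stage means did not follow the mesothelial markers, whose mean sum, relative to A-LMSCs, was 2.37-fold at the pre-metastatic and 2.34-fold at the metastatic stage. Within each stage, both were higher in replicate 2. The ratio of replicate 2 to replicate 1 was 1.27, 1.17 and 1.42 for Aldh1a2 and 1.47, 1.41 and 2.46 for the sum. The part of mesothelial cells in the level of Aldh1a2 was not tested.

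Aldh1a3, the third enzyme of this step, measured 0.580 and 0.272 FPKM at the adenoma stage, 0.347 and 0.242 FPKM at the pre-metastatic stage and 1.12 and 0.287 FPKM at the metastatic stage. The value in M-LMSC replicate 1 stood above the other 5 libraries, with a 95% Poisson interval of 0.911 to 1.36 FPKM, and M-LMSC replicate 2 lay among them. Between 21 and 101 fragments stood behind each value. The mean of Aldh1a3 over all libraries was below the 1 FPKM asked for in the fit.

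Aldh1a1 made up a larger share of the 3 enzymes at the later stages. The share of Aldh1a1 in their summed FPKM was 16.7% and 18.6% in A-LMSCs, 37.5% and 34.7% in PM-LMSCs, and 37.1% and 42.4% in M-LMSCs. The later-stage shares lay within a narrower range than the levels, and all of them were above both A-LMSC shares. With lengths taken as the union of annotated exons, the share was 7.68% and 8.68% in A-LMSCs and between 18.1% and 23.4% in the later stages. The summed FPKM of the 3 enzymes, as deposited, overlapped between A-LMSCs (124 and 161) and M-LMSCs (130 and 200), whereas both PM-LMSC sums (170 and 191) lay above A-LMSCs.

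**Figure D3:**
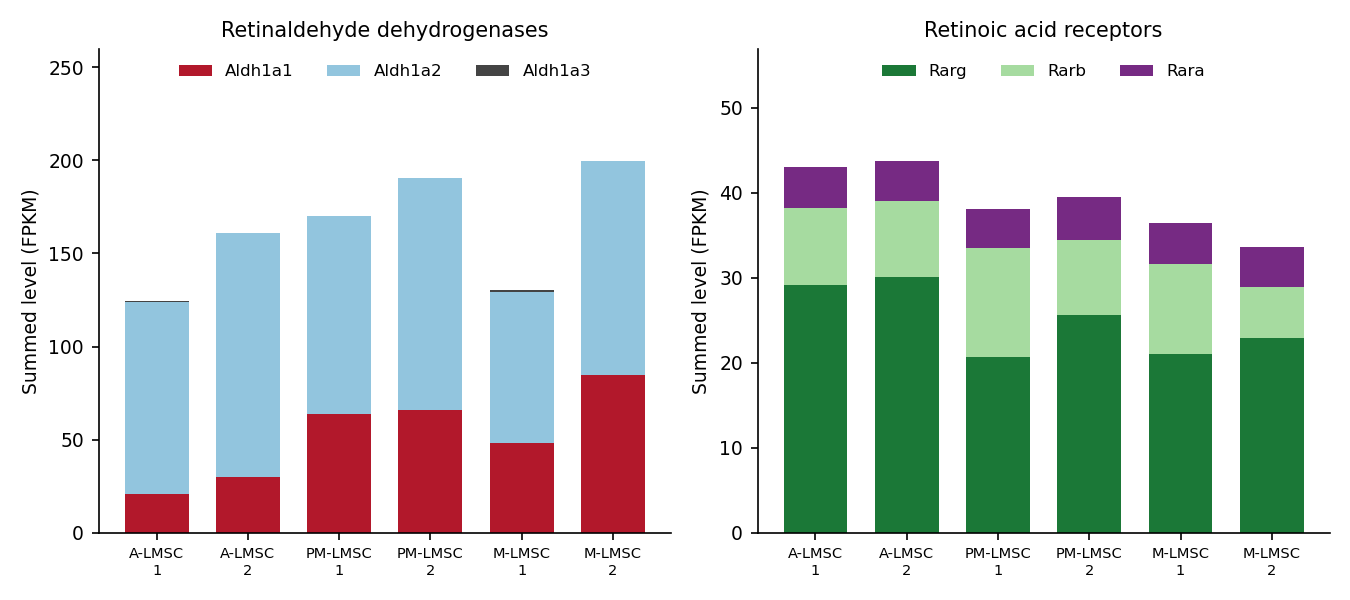
Stacked FPKM of the 3 retinaldehyde dehydrogenases (left) and of the 3 retinoic acid receptors (right) in each of the 6 libraries, with stage and replicate number under each bar. Aldh1a1 takes 16.7% to 18.6% of the dehydrogenase sum in A-LMSCs and 34.7% to 42.4% in the later stages, and Rarg takes over 54% of the receptor sum in all 6 libraries.

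Of the receptors, Rarg measured 29.1 and 30.0 FPKM at the adenoma stage, 20.7 and 25.6 FPKM at the pre-metastatic stage and 21.0 and 22.9 FPKM at the metastatic stage. All 4 later-stage libraries were below both A-LMSC libraries, and the later stages overlapped each other. The difference on the log2(FPKM + 1) scale was -0.35 for PM-LMSCs and -0.41 for M-LMSCs against A-LMSCs (SE 0.13 each), and -0.07 (SE 0.13) between the later stages. Rarg kept the greatest share of the 3 receptors, at 67.6% and 68.7% in A-LMSCs, 54.4% and 64.8% in PM-LMSCs, and 57.6% and 68.2% in M-LMSCs. The share in M-LMSC replicate 2 was inside the range of A-LMSCs, where Rarb was at its lowest.

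Rara, the receptor found in most tissues, measured 4.76 and 4.74 FPKM at the adenoma stage, 4.60 and 5.07 FPKM at the pre-metastatic stage and 4.78 and 4.65 FPKM at the metastatic stage. The stages overlapped and no difference exceeded 0.03 on the log2(FPKM + 1) scale in size (SE 0.11). Rarb, known as a gene that retinoic acid itself induces, differed by 0.21 for PM-LMSCs and by -0.15 for M-LMSCs against A-LMSCs (SE 0.26 each), and by -0.36 (SE 0.26) for M-LMSCs against PM-LMSCs. The sign of each rested on a single library, since the first was -0.03 without PM-LMSC replicate 1, and the others were 0.22 and 0.01 without M-LMSC replicate 2. Rarb shares 2020 annotated exon bases with genes on the opposite strand, among them Top2b, and whether the library kit marked strand is not given in the sources used here. The receptors were less alike in coding sequence than Aldh1a1 and Aldh1a7, at 74.7% identity for Rara and Rarb, 77.9% for Rara and Rarg, and 72.9% for Rarb and Rarg.

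Among the 7 members fitted, Crabp1 and Crabp2 differed most between libraries of one stage. Crabp1 measured 3.17 and 2.56 FPKM at the adenoma stage, 1.01 and 1.73 FPKM at the pre-metastatic stage and 0.980 and 6.16 FPKM at the metastatic stage. PM-LMSCs lay below A-LMSCs, but the M-LMSC libraries were the lowest and the highest of all 6 and differed 6.29-fold from each other. Between 12 and 82 fragments stood behind each value. Its log2(FPKM + 1) difference was -0.72 for PM-LMSCs and -0.03 for M-LMSCs against A-LMSCs (SE 0.54 each). Without M-LMSC replicate 2 the latter was -0.96, and without M-LMSC replicate 1 it was 0.89, so its sign rested on a single library.

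Crabp2 measured 3.92 and 5.79 FPKM at the adenoma stage, 5.88 and 5.47 FPKM at the pre-metastatic stage and 4.76 and 11.8 FPKM at the metastatic stage. M-LMSC replicate 2 was above the other 5 libraries and M-LMSC replicate 1 was among them. The differences against A-LMSCs were 0.21 for PM-LMSCs and 0.57 for M-LMSCs (SE 0.36 each), and they were -0.03 without A-LMSC replicate 1 and -0.01 without M-LMSC replicate 2. Crabp2 made up 55.3% and 69.3% of the summed FPKM of both binding proteins in A-LMSCs, 85.3% and 76.0% in PM-LMSCs, and 82.9% and 65.7% in M-LMSCs. M-LMSC replicate 2 was thus the library with the highest values of Aldh1a1, Crabp1 and Crabp2 and of the mesothelial sum, and with the lowest of Rarb.

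Rbp4, the plasma retinol carrier made chiefly by liver and fat, measured 0.444 and 0.396 FPKM at the adenoma stage, 0.417 and 0.0971 FPKM at the pre-metastatic stage and 0.606 and 0.790 FPKM at the metastatic stage. The M-LMSC libraries were the highest, but only 2 to 17 fragments stood behind each value. The 95% Poisson interval of M-LMSC replicate 1 (0.323 to 1.04 FPKM) held both A-LMSC values, whereas that of M-LMSC replicate 2 (0.460 to 1.26 FPKM) lay above them. Both overlapped the intervals of the A-LMSC libraries (0.229 to 0.775 FPKM and 0.181 to 0.753 FPKM). Rbp4 did not reach a mean of 1 FPKM and was not fitted. Counting intervals cover counting error only.

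**Figure D4:**
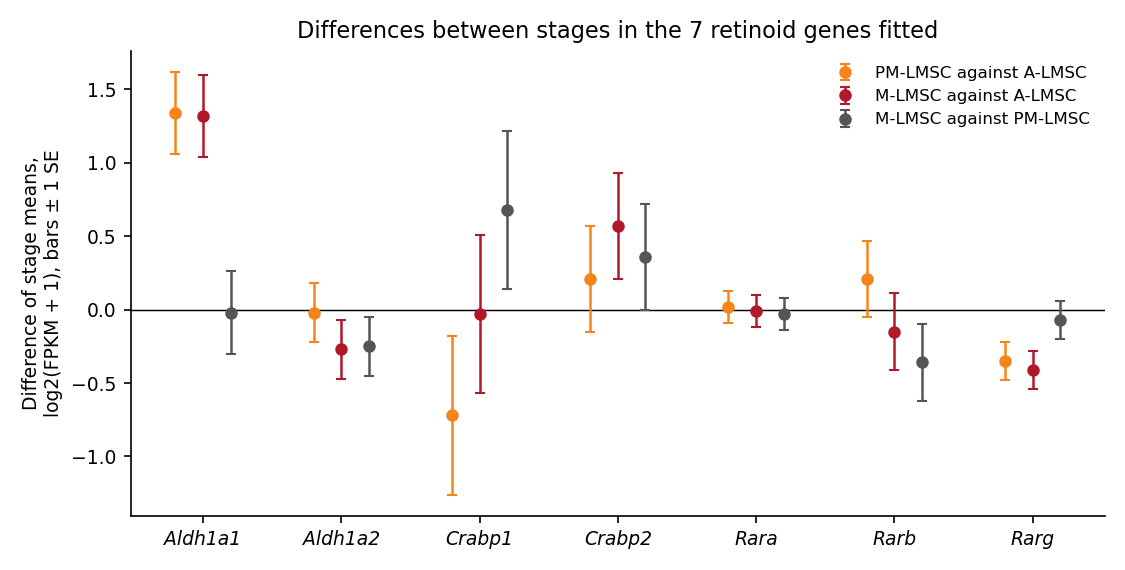
Difference of stage means on the log2(FPKM + 1) scale for the 7 genes fitted, with bars of 1 SE from the fit over all 6 libraries. Aldh1a1 lies near 1.3 in both comparisons with A-LMSCs and near 0 between the later stages, Rarg lies below 0 in both comparisons with A-LMSCs, and the bars of Crabp1 are the widest.

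In the order of mean levels over the 6 libraries, Aldh1a2 (110.0 FPKM) was followed by Aldh1a1 (52.3), Rarg (24.9), Rarb (9.40), Crabp2 (6.27), Rara (4.77), Crabp1 (2.60), Aldh1a3 (0.474) and Rbp4 (0.458). The range over libraries overlapped for Aldh1a1 with its neighbours Aldh1a2 and Rarg, for Rarb with Crabp2, for Crabp2 with Rara, for Rara with Crabp1, for Crabp1 with Aldh1a3, and for Aldh1a3 with Rbp4. It did not overlap for Rarg and Rarb. This order also rests on the gene length used, because the length behind the values of Aldh1a1 was 2053 bases against 4937 bases for the union of its annotated exons, and that of Rarg was 5637 against 4261. With the exon union the means were 21.7 FPKM for Aldh1a1 and 32.9 FPKM for Rarg, so that these genes changed places. Rarb, at 5.42 FPKM, then stood below both Crabp2 (7.53 FPKM) and Rara (6.22 FPKM). Ratios between libraries within a gene do not depend on the length, whereas differences on the log2(FPKM + 1) scale do.

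limma was fitted to the 10279 genes whose mean reached 1 FPKM, which included 7 of the 9 genes. None of the 7 was called (adjusted p under 0.05) in any comparison, against 0.0389% of all fitted genes for PM-LMSCs against A-LMSCs, 0.0681% for M-LMSCs against A-LMSCs and 0.0292% for M-LMSCs against PM-LMSCs, and at an unadjusted p under 0.05 there were 2, 2 and 0 of the 7 beside 6.53%, 14.6% and 8.94% of all fitted genes. The labels state no pairing of libraries across stages. With the replicate number as a block, Aldh1a1 alone among the 7 was called, in both comparisons with A-LMSCs. Its SE was then 0.17, and the shares of all fitted genes called were 0.292%, 3.92% and 0.418% in the same order of comparisons. These comparisons were in view when the set was chosen, so nothing is read from these counts. The libraries of PM-LMSCs and A-LMSCs did not overlap for 3 of the 7 genes (Aldh1a1, Crabp1 and Rarg) and for 39.3% of all fitted genes. Those of M-LMSCs and A-LMSCs did not overlap for 2 of the 7 (Aldh1a1 and Rarg) and for 51.5% of all fitted genes, and those of M-LMSCs and PM-LMSCs for 0 of the 7 and for 34.5%. The median difference of the 7 genes was 0.02, -0.03 and -0.03 on the log2(FPKM + 1) scale in the 3 comparisons, beside medians of 0.01, 0.03 and -0.00 over all fitted genes.

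For the 3 members that spanned at least 1 on the log2(FPKM + 1) scale, the genes most like them over the 6 libraries were taken by Pearson's r, as a description of only 6 points. Aldh1a1 was most like Mpzl2 (r = 0.994), Mical2 (r = 0.992) and Gm26809 (r = 0.989), and 55 fitted genes reached an r of 0.95. Crabp1 was most like Gpt2 (r = 0.994), Elp3 (r = 0.988) and Acly (r = 0.987), while Crabp2 was most like Ang (r = 0.981), Ptgfrn (r = 0.979) and Lyplal1 (r = 0.974). For these 2 members, 20 and 15 fitted genes reached an r of 0.95. Such an r does not measure the size of a change, since Mical2 lay only between 42.9 and 56.3 FPKM and Elp3 between 20.3 and 26.4 FPKM. The remaining members that were fitted varied too little for such a ranking, with ranges between 0.12 and 0.97.

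The rest of the pathway was described by lists of 74 other genes, of which 47 reached a mean of 1 FPKM. In limma none of the 47 was called in any of the 3 comparisons (5, 7 and 10 had an unadjusted p under 0.05, as had 671, 1504 and 919 of the 10279 fitted genes), voom on recovered fragments called 0 as well, and with the replicate block 3 were called for M-LMSCs against A-LMSCs (Tgm2 and Aldh6a1 among them), beside 3.92% of all fitted genes, and 0 in the other comparisons. Their median difference was -0.01 for PM-LMSCs and 0.07 for M-LMSCs against A-LMSCs, beside 0.01 and 0.03 over all fitted genes. These lists were drawn up with earlier results of the same data known.

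For uptake, storage and release of retinol, 3 of 12 genes were fitted, and Stra6, the receptor for Rbp4, and Lrat, which esterifies retinol for storage, were at or below 0.103 FPKM in all libraries. Scarb1, a lipoprotein receptor that also takes up carotenoids, differed by -0.33 (SE 0.15) for M-LMSCs against A-LMSCs.

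For the oxidation of retinol to retinaldehyde and its reversal, 9 of 16 genes were fitted and none was called. Dhrs3, which reduces retinaldehyde back to retinol, measured 27.5 and 29.9 FPKM at the adenoma stage, 15.4 and 22.1 FPKM at the pre-metastatic stage and 18.9 and 24.0 FPKM at the metastatic stage. The later stages lay below A-LMSCs without overlap, with a difference of -0.61 (SE 0.19) for PM-LMSCs. Dhrs9 differed by 0.61 (SE 0.14) for PM-LMSCs against A-LMSCs, Rdh14 by 0.35 (SE 0.16) for M-LMSCs against A-LMSCs, and Adh1 by -0.46 (SE 0.15) for M-LMSCs against PM-LMSCs. Rdh10, the main retinol dehydrogenase of the embryo, lay between 1.80 and 2.94 FPKM. Of the 3 enzymes that break down retinoic acid only Cyp26b1 was fitted, with values between 0.816 and 1.41 FPKM and a difference of -0.32 (SE 0.12) for M-LMSCs against PM-LMSCs.

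Of 11 receptor partners 9 were fitted and none was called with or without the block. Rxra, the main retinoid X receptor here, measured 10.4 and 10.3 FPKM at the adenoma stage, 9.00 and 8.50 FPKM at the pre-metastatic stage and 9.07 and 9.07 FPKM at the metastatic stage. Its difference for PM-LMSCs against A-LMSCs was -0.22 (SE 0.11), and Rxrg was listed at 0 in all libraries. Fabp5, which carries retinoic acid to the receptor Ppard, differed by -0.45 (SE 0.15) and the coactivator Ncoa3 by -0.26 (SE 0.11) in that comparison, and Ncoa1 by 0.22 (SE 0.14) for M-LMSCs against A-LMSCs.

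Among genes known as targets of retinoic acid, 11 of 15 were fitted. Tgm2, a transglutaminase, measured 374 and 420 FPKM at the adenoma stage, 316 and 332 FPKM at the pre-metastatic stage and 234 and 237 FPKM at the metastatic stage. The stages did not overlap, and the M-LMSC difference against A-LMSCs was -0.75 (SE 0.11), with an adjusted p of 0.0875 in limma and of 0.0204 in limma with the block. Hoxb5 differed by -0.51 (SE 0.14) for M-LMSCs, and Nr2f2 by -0.49 (SE 0.22) and Hoxa4 by -0.35 (SE 0.15) for PM-LMSCs, all against A-LMSCs. The median difference of the 11 genes was -0.17 for PM-LMSCs and -0.07 for M-LMSCs against A-LMSCs.

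The other aldehyde dehydrogenases oxidize amino acid, lipid and folate intermediates, and 14 of 17 were fitted. Aldh6a1, of valine breakdown, measured 3.89 and 4.31 FPKM at the adenoma stage, 5.85 and 5.30 FPKM at the pre-metastatic stage and 7.31 and 7.63 FPKM at the metastatic stage. The stages did not overlap, and its difference for M-LMSCs against A-LMSCs was 0.73 (SE 0.12), with an adjusted p of 0.0959 in limma and of 0.0250 in limma with the block. Aldh3a2, which oxidizes fatty aldehydes, differed by 0.42 (SE 0.12) and Aldh3b1 by 0.40 (SE 0.19) for M-LMSCs against A-LMSCs, and Aldh1l1 by -0.37 (SE 0.28) for PM-LMSCs against A-LMSCs. Aldh2, the mitochondrial acetaldehyde dehydrogenase, lay between 30.0 and 36.1 FPKM. No other gene of the list had a difference against A-LMSCs as large as that of Aldh1a1, the highest being 0.37 for PM-LMSCs and 0.73 for M-LMSCs.

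**Figure D5:**
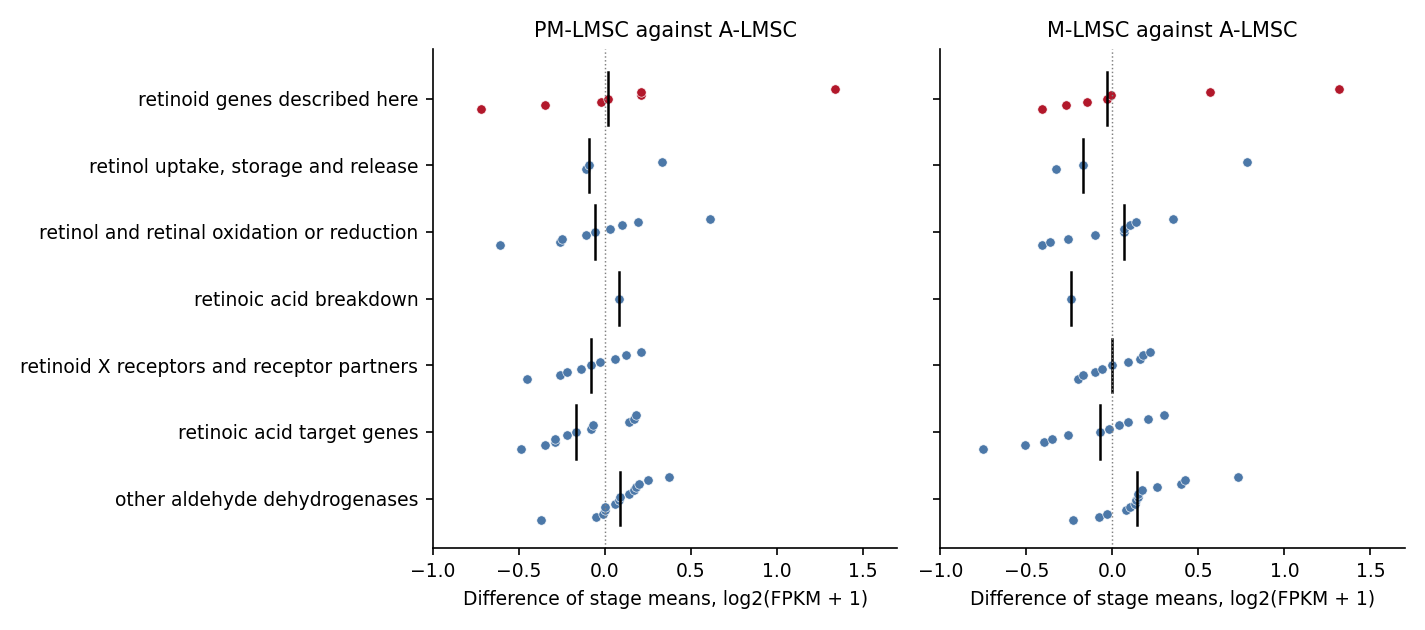
Difference of stage means on the log2(FPKM + 1) scale for each fitted gene of the 6 pathway lists (blue) and for the 7 fitted retinoid genes (red), for PM-LMSCs (left) and M-LMSCs (right) against A-LMSCs, with list medians as black lines. Aldh1a1, at 1.34 and 1.32, is the point farthest to the right in both panels.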

How the data were processed

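The authors deposited FPKM values for 34745 genes, 1 column per library, and the submitters' processing notes name TopHat2 2.0.9 and mm10. The quantifier and annotation are not given in the sources used here. Library sizes were recovered from the steps of FPKM times length in genes with a single transcript. A gene's length was the sum of its distinct exons where this made its fragments whole in all libraries, within 0.01 of a fragment. Otherwise it was the shortest length up to 20000 bases that did so, which makes wholeness the criterion of the choice. This gave a length for 99.6% of the fitted genes. The lengths of Aldh1a1, Aldh1a3, Rbp4, Rarb and Rarg came from the search. Where annotated exons overlap, the length behind the values was the sum of distinct exons in 63.3% of genes. The 10279 genes whose mean reached 1 FPKM were fitted as log2(FPKM + 1) with limma 3.58.1 in R 4.3.3 (1 mean per stage over all 6 libraries, eBayes with trend) and adjusted by the Benjamini-Hochberg method at 0.05. The members and lists were chosen with earlier results of these data known.

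Genes named besides the members were the pathway genes called, up to 4 genes per list with the largest difference among those whose libraries did not overlap, Aldh1a7, the 3 genes most like each variable member, and a few named for their role after their values were seen. Positions came from GENCODE M21 (GRCm38) and promoters from RefSeq. Copies were searched for with blastn 2.17.0 (at least 95% identity over 200 bases), and none was found for any member besides the exons Rarb shares with opposite-strand genes. Deviations from the stage mean correlated between libraries of the same number in every pair of stages (0.238, 0.307 and 0.491). The block treated these numbers as pairs, although the labels state no such pairing. A difference that runs the same way between the 2 libraries of each stage can also give such correlations, so the pairing was not established. The summed mesothelial markers, for instance, were 1.47-fold, 1.41-fold and 2.46-fold in replicate 2 relative to replicate 1. The fits were tested on simulated data. Alternatives were a pseudocount of 0.1, no filter on low values, quantile normalization, median centering, only the stages compared, the replicate block, each library left out, and voom on the recovered fragments with and without the block, the last chosen after seeing the data. The values of 1 listed pathway gene are not reported here.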

Additional observations from a re-analysis of the deposited data

How the results depend on the processing

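Of 294 values of the 7 fitted members under 14 alternatives, 270 moved by less than the residual SD. Aldh1a1 stayed between 1.09 and 1.60 for PM-LMSCs and between 0.93 and 1.72 for M-LMSCs against A-LMSCs. Rarg stayed between -0.49 and -0.20 and between -0.48 and -0.35. Crabp1 ranged from -0.96 to 0.89 for M-LMSCs against A-LMSCs.

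Over all genes, limma called 4 for PM-LMSCs against A-LMSCs, 7 for M-LMSCs against A-LMSCs and 3 for M-LMSCs against PM-LMSCs. With the replicate block these were 30, 403 and 43, and with voom and the block 88, 614 and 80. The first 2 counts were 1 and 3 with no filter, and 21 and 1 with only the stages compared. Leaving out each library gave 1 to 28, 1 to 90 and 2 to 25 genes, the highest without an M-LMSC library. Other pathway genes called for M-LMSCs against A-LMSCs numbered 0, then 3 with the block and 4 with voom and the block, which added Meis2. The block also brought the call of Aldh1a1 in both comparisons with A-LMSCs, in limma and in voom. In limma with the block, 0.292% and 3.92% of all fitted genes were called in these comparisons. The set was chosen with these comparisons in view and the pairing was not established, so nothing is read from that call. The block changed no other call described. The cause of these shifts was not tested. With 2 libraries per stage the spread is poorly known, and genes under 1 FPKM rest on few fragments.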
